A study of Mus musculus with 14 samples.

Results

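The genes of the Wnt ligands, their Frizzled receptors and the secreted proteins that tune them were followed in cultured pancreatic stellate cells (PSCs) and in livers of tumor-bearing mice. They were taken by symbol, as protein-coding genes named Wnt, Fzd, Sfrp, Dkk or Rspo with a number, plus Wif1 and Frzb. The choice was made with earlier results of these data known, so shares set against all genes are descriptive. By this rule 43 of the 54532 genes in the liver table were members, namely 19 Wnt ligands, 10 Frizzled receptors, 4 R-spondins, 4 Dickkopf proteins and 6 antagonists that bind Wnts. The PSC table lists 16481 genes, and 31 of the 43 were among them.

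Wnts are lipid-modified secreted proteins that bind Frizzled receptors. With the co-receptors Lrp5 and Lrp6 they stabilize beta-catenin, which then acts with TCF/LEF factors on target genes, while other Wnts, Wnt5a and Wnt11 among them, work mostly through planar polarity and calcium routes. R-spondins raise the number of receptors at the cell surface, Dickkopf proteins block the co-receptors, and Sfrp proteins, Frzb and Wif1 bind Wnts outside the cell. In liver, Wnt2, Wnt9b and Rspo3 from endothelial and stromal cells set the program of hepatocytes around the central vein.

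The study asked how the mechanosensitive channel PIEZO1 and the calcium channel TRPV4 act in pancreatic cancer. Mouse PSCs were grown on Matrigel and given the PIEZO1 agonist Yoda1 at 25 μM or its solvent DMSO, with 3 cultures each, and the methods give 24 hours of treatment where a supplementary legend gives 72. Livers were collected 20 days after injection of the pancreas with KPCY tumor cells, a mouse pancreatic tumor line with a functional Trpv4. They came from 2 WT mice, which in this study carry a floxed but intact Piezo1 (Piezo1 fl/fl), from 3 TRPV4-KO mice (Trpv4-/- in all tissues), and from 3 WT mice that received GSK219 (GSK2193874), which blocks TRPV4, at 10 mg/kg by daily gavage. Mice were 8 to 12 weeks old, and whether the untreated WT mice received the carrier is not stated. Nothing in the labels says which mice gave the PSC cultures, so p-values measure the spread between these cultures. The methods name human PSCs for one sequencing core, while the labels and gene identifiers of the PSC libraries are those of mouse.

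Libraries held between 15567031 and 17395299 counts in livers and between 27312894 and 39070539 reads in PSCs. In the TRPV4-KO livers the targeted gene Trpv4 had 15, 5 and 23 counts, against 43 and 53 in WT and 20, 30 and 36 with GSK219. In the PSC cultures 9 of 10 stellate or fibroblast markers were listed, and Col1a1, Acta2 and Vim were abundant, but Gfap, a classical marker of stellate cells, was not listed. Markers of other cells were present too. The ductal or epithelial list (Krt19, Krt7, Cdh1, Epcam, Muc1 and Sox9) summed to between 653 and 924 TPM with DMSO and between 590.2 and 1230.4 TPM with Yoda1, and the mesothelial list (Msln, Upk3b, Lrrn4 and Wt1) to between 218 and 404 TPM and between 391 and 474 TPM. Within the mesothelial list Msln rose, from between 135 and 178 TPM to between 304 and 351 TPM, while Upk3b, Lrrn4 and Wt1 had log2 fold changes below 0. The acinar list, of which 6 of 7 genes were listed, summed to between 112 and 644 TPM with DMSO and to between 155 and 1469 TPM with Yoda1. The leukocyte list (4 of 6 listed) summed to between 26.7 and 30.9 TPM with DMSO and to between 31.9 and 69.2 TPM with Yoda1, where Cd68 was the most abundant, and 0 of its 3 tested genes were called by limma, with 0 at an unadjusted p under 0.05. The endothelial list summed to between 22.2 and 27.6 TPM and between 20.3 and 23.9 TPM, with Kdr called lower and the other 4 genes above 0 but not called. TPM is a level corrected for gene length and scaled to the same total in every library.

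Levels per length showed which members these cells and tissues used. In DMSO cultures the most abundant were the receptors Fzd2 at 120 ± 10.5 TPM, Fzd7 at 77.2 ± 10.1 and Fzd1 at 69.9 ± 6.64, and the ligands Wnt5a at 88.1 ± 4.80, Wnt9a at 67.6 ± 15.0, Wnt2b at 61.6 ± 14.8 and Wnt7a at 44.0 ± 7.82 (SD, n = 3). Fzd6 followed at 41.7 ± 0.85 TPM. The order of Fzd7, Fzd1, Wnt9a and Wnt2b lay within their SDs. The lowest of the listed members, by the mean over the 6 cultures, were Sfrp4 at 0.20, Wnt1 at 0.46 and Fzd10 at 0.48 TPM. The 12 members not listed in PSCs were Dkk1, Dkk4, Rspo2, Sfrp5, Wif1, Wnt16, Wnt3, Wnt3a, Wnt6, Wnt8a, Wnt8b and Wnt9b.

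In sum, livers held far less of the ligands. Wnt5b was not lower, at 8.08 TPM in livers and 7.54 in PSCs, and Wnt9b, at 1.33 TPM in livers, was not listed in PSCs. Over the 8 livers the mean was 18.1 TPM for Fzd7, 16.3 for Fzd8, 15.7 for Fzd4 and 8.08 for Wnt5b, followed by Fzd1 at 7.09, Wnt2 at 5.16, Fzd6 at 3.71 and Fzd5 at 3.62. In both WT livers Fzd7 was above Fzd8 and Fzd8 above Fzd4, while in TRPV4-KO the mean of Fzd4, 19.1 TPM, was the highest of these receptors, within the SDs of the others. The 19 Wnts summed to between 13.3 and 23.9 TPM in a liver, and to between 281 and 391 TPM in a PSC culture. PSC and liver libraries were made and normalized separately, so these levels are set side by side without a test. No count of Dkk1, Fzd10, Rspo2, Rspo4, Wnt1, Wnt10a, Wnt10b, Wnt16, Wnt3, Wnt3a or Wnt8a was found in any liver, which for 3 counts in all 8 livers together allows a level of up to 0.0229 CPM (counts scaled to library size). Of these 11, Wnt10b, Wnt10a, Wnt1, Rspo4 and Fzd10 were listed in PSCs.

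**Figure D1:**
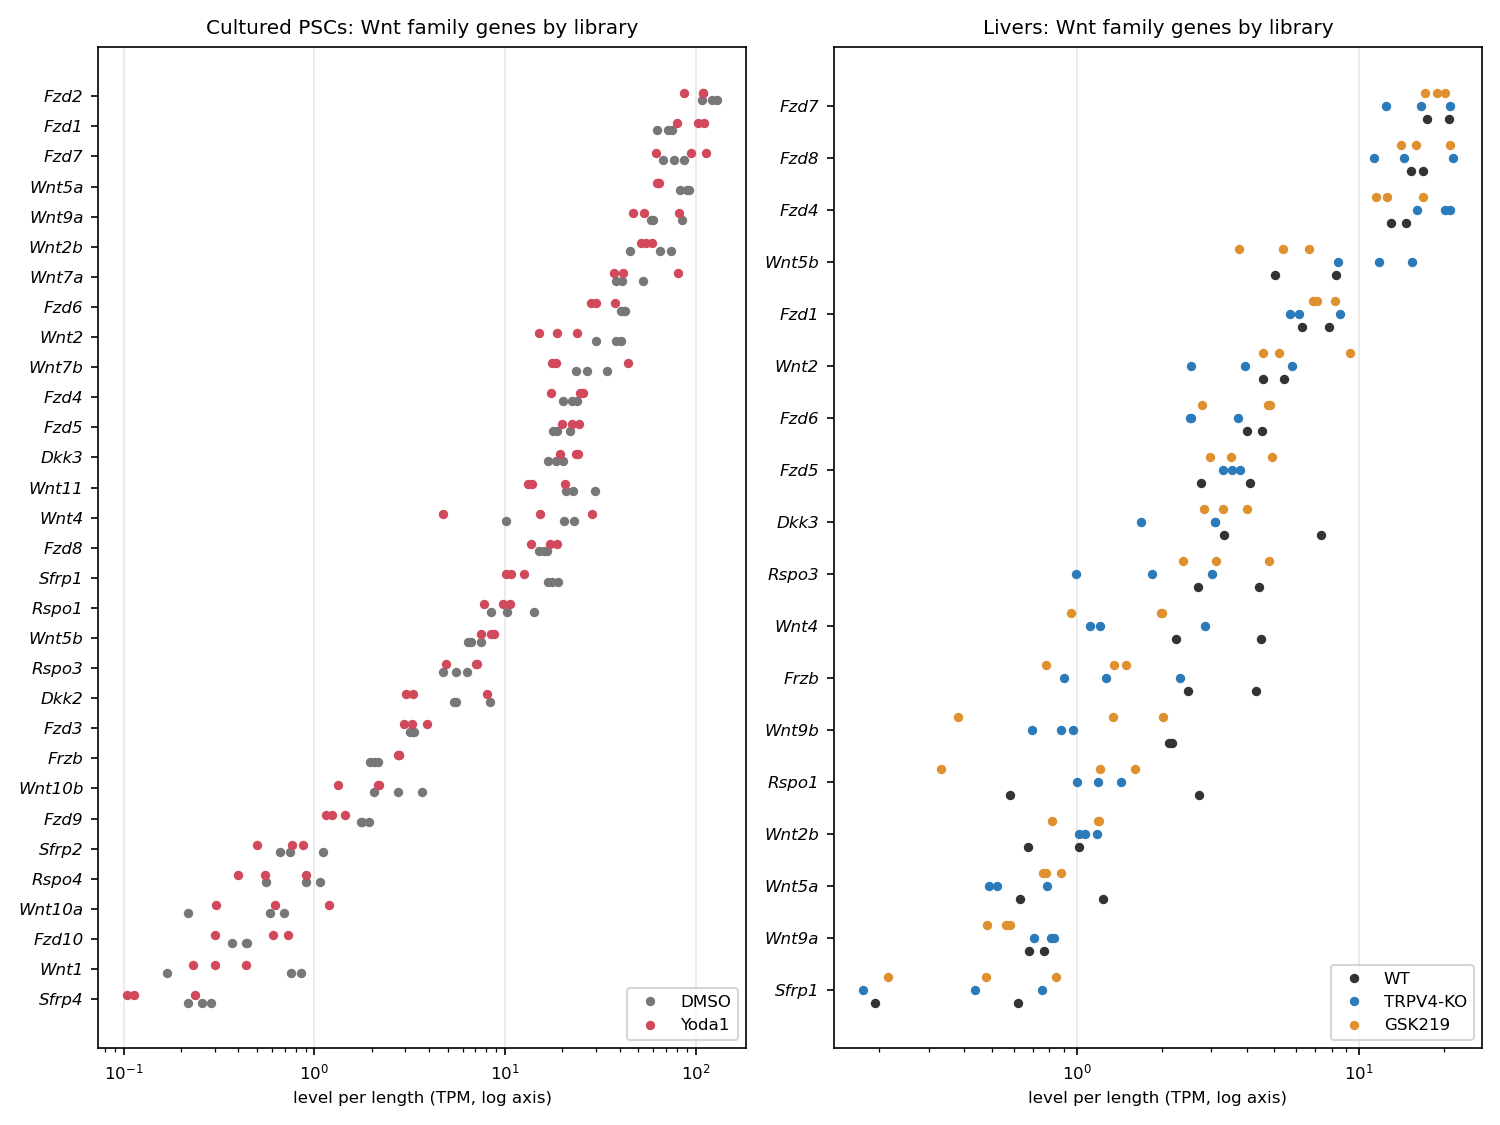
Level per length of each member in every library, in TPM on a log axis, for the 31 members listed in PSCs (left) and the 18 members with a median of at least 10 counts over the livers (right); each point is a library, colored by group. Fzd2, Fzd1, Fzd7, Wnt5a, Wnt9a and Wnt2b lead in PSCs, and Fzd7, Fzd8 and Fzd4 lead in livers.

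In the main fit, which ignores pairs of cultures, the ligands Wnt5a and Wnt2, the receptor Fzd6 and the antagonist Sfrp1 fell with Yoda1 in PSCs. No member was called higher in this fit. The test was limma on log2(value + 1), with 29 members tested; Wnt1 and Sfrp4 were below the minimum of 10 in 3 libraries. These 4 are 13.8% of the members tested, where 4.75% of all 15145 genes tested were called and 2.54% were called lower. Of the 29, 19 had a log2 fold change below 0, and the median was -0.30, against -0.01 over all genes. The 3 Yoda1 and 3 DMSO cultures share numbers and sample codes in their labels, pair by pair. With the number as a replicate block 9 members were called (31.0%, against 17.7% of all genes). Of these, 8 were lower (against 9.16%) and 1, Fzd1, was higher (against 8.53%). On recovered reads edgeR called 3 members (4.58% of all genes) and DESeq2 6 (10.7%), and 1 member, Wnt2, passed with a log2 fold change over 1 required too (1.56%). At an unadjusted p under 0.05 there were 8 members (27.6%, against 22.7%). Groups that did not overlap were found for 9 members (31.0%), against 30.0% of all genes, with 7 lower (against 15.1%) and 2 higher (against 14.9%). Without DMSO replicate 2 no member was called by limma, with 8 at an unadjusted p under 0.05 (against 15.1% of all genes), and 0.327% of all genes were called.

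Wnt5a, the most abundant Wnt here and a ligand of planar polarity and calcium routes, lies on chromosome 14 from 28504750 to 28527448 (GRCm38). Its normalized read counts were 6015, 6708 and 7013 with DMSO and 4322, 4269 and 4456 with Yoda1. Every Yoda1 culture was below every DMSO culture, and the Yoda1 cultures lay close together. On the log2(value + 1) scale the change was -0.59 (standard error, SE, 0.068, limma adjusted p = 0.0114). The adjusted p was 0.0770 without DMSO replicate 2 and 0.0719 without Yoda1 replicate 2, where the log2 fold change was -0.58 in both cases.

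Wnt2, a ligand of the beta-catenin route made by mesenchyme and endothelium (chromosome 6 from 17988940 to 18030585), had normalized read counts of 798, 858 and 677 with DMSO and of 363, 297 and 485 with Yoda1. It had the largest change of the 4, and the groups did not overlap. Its log2 fold change was -1.05 (SE 0.188, limma adjusted p = 0.0322). The call was lost when any culture but Yoda1 replicate 3 was left out, with adjusted p of 0.113, 0.146 and 0.0580 without DMSO replicates 1, 2 and 3 and of 0.0890 and 0.103 without Yoda1 replicates 1 and 2. The log2 fold change lay between -1.14 and -0.88 in these fits and was -1.23 without Yoda1 replicate 3.

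Wnt11, another planar polarity ligand (chromosome 7 from 98835112 to 98855195), had 804, 875 and 1220.3 normalized reads with DMSO and 494, 476 and 761 with Yoda1. All Yoda1 values were below all DMSO values, and culture 3 was the highest of each group. The log2 fold change was -0.75 (SE 0.227, limma adjusted p = 0.116), and with the replicate block Wnt11 was called (limma adjusted p = 0.00361). The block also called Wnt9a, at -0.30 (limma adjusted p = 0.0258, and 0.531 without the block), with 1809, 1849 and 2822 normalized reads under DMSO and 1338, 1553 and 2428 under Yoda1. These groups overlap, but each Yoda1 culture was below the DMSO culture of its own number.

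The promoters of Wnt2 and Wnt11 are shown because both ligands were lower with Yoda1 and their windows differ in TCF/LEF letters. They are RefSeq sequences of GRCm38.p6, 5′ to 3′ on the strand of the gene, from 250 bases before a RefSeq start and cut where the annotated gene begins, with motif letters in capitals.
Wnt2, chr6:18030586-18030695, minus strand: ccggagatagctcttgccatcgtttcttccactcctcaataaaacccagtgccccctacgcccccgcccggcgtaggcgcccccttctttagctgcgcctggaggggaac
Wnt11, chr7:98834862-98835111, plus strand: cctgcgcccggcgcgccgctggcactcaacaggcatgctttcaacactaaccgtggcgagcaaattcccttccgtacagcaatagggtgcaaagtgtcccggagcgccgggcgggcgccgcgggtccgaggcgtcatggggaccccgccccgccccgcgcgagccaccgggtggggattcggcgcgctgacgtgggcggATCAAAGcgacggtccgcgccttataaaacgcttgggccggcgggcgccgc
The Wnt11 window holds ATCAAAG, the reverse complement of CTTTGAT, from 51 to 45 bases before the start, and the Wnt2 window holds none of the motifs searched. These were CTTTGAT and CTTTGTT (TCF/LEF), TGANTCA (AP-1) and GGAATG (TEAD) on both strands. The search covered the 250 bases before each RefSeq start, also where fewer are printed. Among 32851 such windows, 3.21% hold CTTTGAT, 5.03% CTTTGTT, 6.75% TGANTCA and 12.6% GGAATG. Of the 32 windows of 29 members, 2 held CTTTGAT (Wnt11 and Wnt5b), 2 CTTTGTT (Dkk1 and Fzd7), 1 TGANTCA (Wnt5b) and 0 GGAATG.

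The other ligands tested were not called with or without the block. Wnt2b had 2540.0, 2916 and 1905 normalized reads with DMSO and 1875, 2014 and 2235 with Yoda1, with overlap (log2 fold change -0.25, adjusted p = 0.394 by limma). Wnt10b was at -0.68 (limma adjusted p = 0.244), Wnt7b at -0.32 (adjusted p = 0.653) and Wnt4 at -0.52 (adjusted p = 0.667). Wnt5b was at 0.14, Wnt7a at 0.08 and Wnt10a at 0.30, with adjusted p of 0.592, 0.910 and 0.804. The intervals were wide for Wnt4, from -2.04 to 1.00, and for Wnt10a, from -1.14 to 1.75.

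Among the receptors Fzd6, which is linked to planar polarity (chromosome 15 from 39006034 to 39038188), was called. It had normalized read counts of 1899, 1833 and 2015 with DMSO and 1560, 1187 and 1291 with Yoda1. The groups did not overlap. Its log2 fold change was -0.52 (SE 0.106, limma adjusted p = 0.0469), just inside the threshold, and edgeR on the recovered reads gave an adjusted p of 0.0528. The call was kept only without Yoda1 replicate 1 (limma adjusted p = 0.0315), where the log2 fold change was -0.63. Without the other cultures in turn the limma adjusted p was 0.142, 0.155 and 0.105 (DMSO 1, 2 and 3) and 0.150 and 0.0665 (Yoda1 2 and 3). The log2 fold change lay between -0.55 and -0.43 in those fits.

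Fzd2 and Fzd1, both abundant, lay in opposite directions. Fzd2, a receptor of Wnt5a among others, had 4176, 4422 and 3971 normalized reads with DMSO and 3436, 3490.1 and 2866 with Yoda1. Fzd1 had 2937, 2820.0 and 2616 with DMSO and 3972, 3786 and 2988 with Yoda1. Neither receptor's groups overlapped. The log2 fold change was -0.36 for Fzd2 (SE 0.0895, limma adjusted p = 0.0732) and 0.35 for Fzd1 (SE 0.114, limma adjusted p = 0.136). With the replicate block both were called, at adjusted p of 0.0111 and 0.0194 by limma. Fzd9, low at 1.83 TPM with DMSO, had 37.4, 38.1 and 44.4 normalized reads with DMSO and 22.6, 24.7 and 29.7 with Yoda1, without overlap, and a log2 fold change of -0.63 (limma adjusted p = 0.132).
Fzd7 had 3682, 3252 and 3043 normalized reads with DMSO and 4425, 3756 and 2526 with Yoda1, with overlap.
The 6 remaining receptors, Fzd7 included, had smaller changes, of -0.12 for Fzd4, -0.09 for Fzd3, -0.08 for Fzd8, 0.08 for Fzd5, 0.07 for Fzd7 and 0.17 for Fzd10. Their adjusted p lay between 0.652 and 0.870 by limma. The 10 receptors summed to between 340.0 and 394 TPM with DMSO and to between 319 and 443 TPM with Yoda1, so the sums overlapped.

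Sfrp1, a secreted antagonist that binds Wnts (chromosome 8 from 23411502 to 23449632), had 772, 717 and 730 normalized reads with DMSO. With Yoda1 it had 405, 482 and 394. The Yoda1 cultures were all far below the DMSO cultures, and the log2 fold change was -0.79 (SE 0.098, limma adjusted p = 0.0134). The call was lost without DMSO replicate 1 (limma adjusted p = 0.0546) or DMSO replicate 2 (limma adjusted p = 0.0827). The log2 fold changes in these fits were -0.76 and -0.82. The other antagonists were low, Frzb at 2.05 TPM and Sfrp2 at 0.84 TPM with DMSO. Frzb had 58.6, 65.1 and 66.6 normalized reads with DMSO and 77.1, 77.4 and 81.0 with Yoda1, without overlap, at a log2 fold change of 0.30 (SE 0.140, limma adjusted p = 0.257), and Sfrp2 was at -0.34 (adjusted p = 0.556).
Of the Dickkopf genes, Dkk3, whose protein differs from the others in not acting on the co-receptors, was at 0.16 (limma adjusted p = 0.370). Dkk2 had 190, 187 and 308 normalized reads with DMSO and 95.9, 107 and 267 with Yoda1. It was lower with Yoda1 within each number, and its log2 fold change of -0.66 had an adjusted p of 0.388, and of 0.0480 with the replicate block (limma). The R-spondins, ligands of the Lgr receptors, were at -0.32 for Rspo1, 0.08 for Rspo3 and -0.56 for Rspo4, with adjusted p between 0.415 and 0.829.

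**Figure D2:**
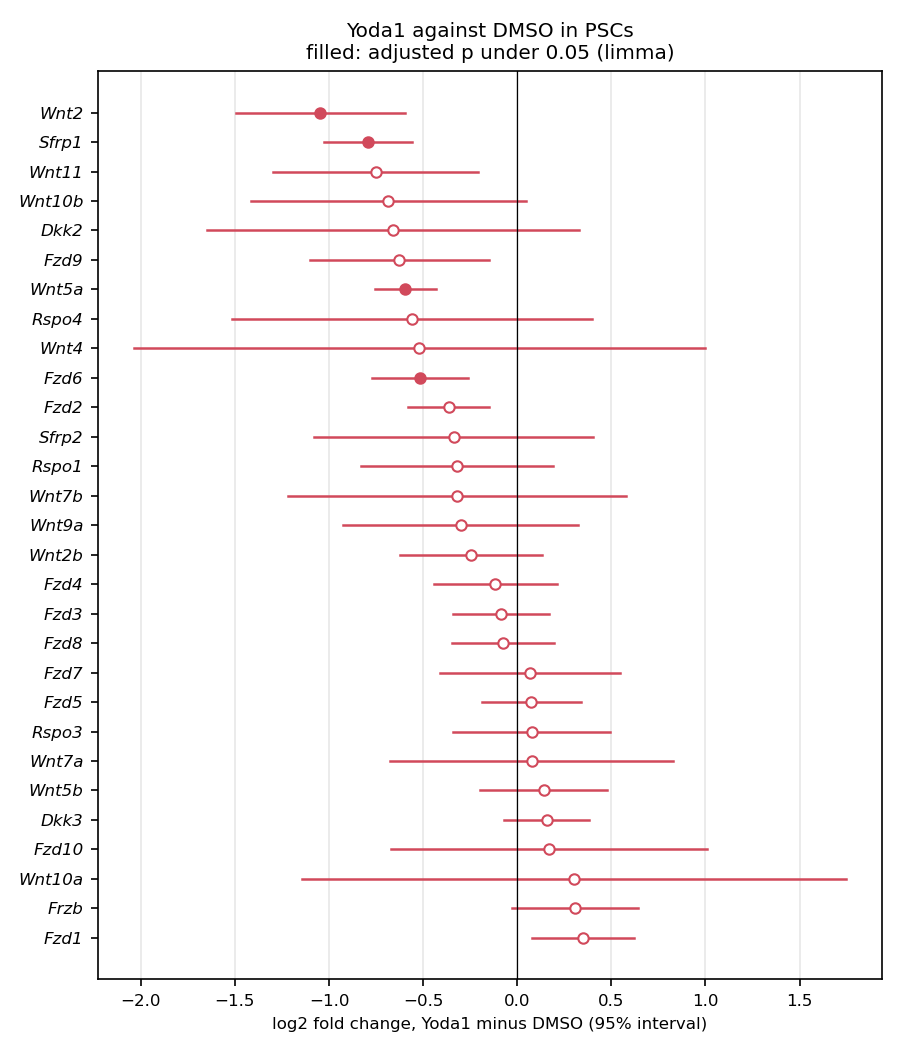
Log2 fold change of Yoda1 against DMSO for the 29 members tested in PSCs, with 95% intervals; filled points passed adjusted p under 0.05 by limma. The filled points are Wnt2, Sfrp1, Wnt5a and Fzd6, all to the left of 0.

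The third pair of cultures stood apart in several members. Wnt4 had 423 normalized reads with DMSO and 177 with Yoda1 in culture 3, against 798 and 1034 in culture 1. Wnt7b had 1675 and 1930 in culture 3, against 1228 and 744 in culture 1, and Wnt7a 1673 and 2291 against 1212 and 1132. In culture 2, Wnt7a had 1126 with DMSO and 1033 with Yoda1. Culture 3 was the lowest of its group for Wnt4 and the highest for Wnt7a and Wnt7b, with either treatment. Of the mesothelial markers Upk3b, Lrrn4 and Wt1 were lowest in culture 3 with either treatment, and Msln with DMSO only. Upk3b was at 13.9 TPM with DMSO and 8.82 with Yoda1 against 71.2 and 39.4 in culture 1. The epithelial marker Cdh1 was highest in culture 3, at 231 and 299 TPM against 144 and 143. All 6 listed acinar markers were highest in culture 3 as well, with Ctrb1 at 518 and 1225 TPM against 88.8 and 128. The part of these cells in the members' values was not tested.
Without both cultures of number 3, 11 members were called (39.3% of 28 tested, against 19.3% of all genes). Of these, 10 were lower, against 10.3% of all genes (Wnt5a, Wnt2, Wnt2b, Wnt7b, Wnt9a, Wnt11, Fzd2, Fzd6, Sfrp1 and Dkk2) and Fzd1 was higher, against 9.01%. Without both cultures of number 1, or of number 2, 0 members were called by limma, with 7 and 5 members at an unadjusted p under 0.05 (against 13.7% and 8.6% of all genes), and 0.0% of all genes were called. The abundant stellate markers were also lower with Yoda1, at 18057 to 18694 summed TPM with DMSO and 7783 to 11108 with Yoda1, and 5 of 9 were called lower (Acta2, Vim, Col1a1, Pdgfrb and Col1a2). Pdgfra was on the other side, at 28.0 to 41.6 TPM with DMSO and 55.2 to 86.2 TPM with Yoda1 (limma adjusted p = 0.0519, and 0.00144 with the replicate block), and Des had a log2 fold change of 0.07. In such bulk samples fewer cells of a type and less RNA per cell cannot be told apart.

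**Figure D3:**
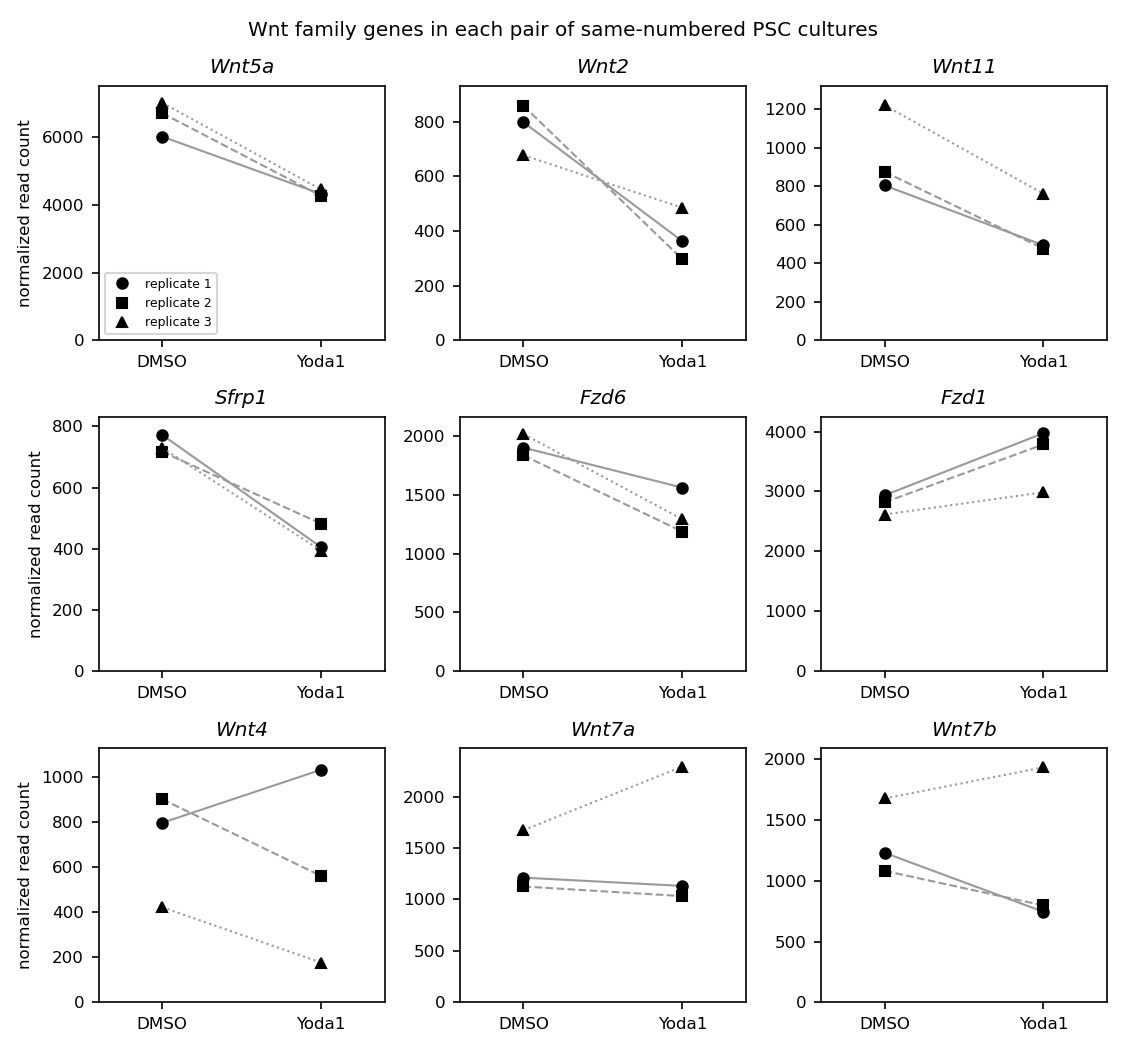
Normalized read counts of 9 members in each culture, with lines joining the DMSO and Yoda1 cultures that share a number. Wnt5a, Wnt2, Wnt11, Sfrp1 and Fzd6 go down and Fzd1 goes up in all 3 pairs, while Wnt4, Wnt7a and Wnt7b split by pair, with culture 3 lowest for Wnt4 and highest for Wnt7a and Wnt7b. Of the 29 members tested, 12 were lower in all 3 pairs, against 29.4% of all genes, and 4 were higher, against 27.2%.

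Other genes of the pathway were taken from lists, also chosen with earlier results of these data known. With cultures left out, singly or in pairs, the number of list genes called with Yoda1 lay between 0 and 23. For 24 tested genes of Wnt secretion, co-receptors and receptor turnover the median log2 fold change was -0.22, against -0.01 over all genes. In the main fit 2.54% of all genes were called lower, and of these 24 genes 3 fell and 0 rose. They were Trabd2b, whose protein cleaves Wnts, at -1.31 (limma adjusted p = 0.0162), Apcdd1, a membrane inhibitor, at -1.12 (adjusted p = 0.0410) and Gpc4, a glypican that holds Wnts at the surface, at -0.87 (adjusted p = 0.0233). With the replicate block 10 fell and 1 rose, where 9.16% of all genes fell and 8.53% rose. In the same fit the beta-catenin route had 2 higher and 1 lower, the general targets 2 and 6, the pericentral genes 2 and 3, and the planar polarity and calcium list 1 and 4.
Of 24 tested general targets of beta-catenin, 2 rose and 4 fell in the main fit, where 4.75% of all genes were called. Wisp1 fell by 1.27, Ephb2 by 0.66 and Ephb3 by 0.61 on the log2 scale, as did Apcdd1, while Zcchc12 rose by 1.22 and Fosl1, a subunit of AP-1, by 0.62. Their adjusted p lay between 0.00788 and 0.0410 by limma, and the median of the list was -0.0006. None of the 34 genes of the intracellular beta-catenin route was called by limma, with 6 at an unadjusted p under 0.05. The smallest p were those of Axin2, a feedback inhibitor and direct target, with 329, 345 and 404 normalized reads under DMSO and 196, 179 and 269 under Yoda1 (log2 fold change -0.76, adjusted p = 0.0628 by limma), and Tle2, at 0.62 (adjusted p = 0.107). Axin2 did not overlap between the treatments, and with the replicate block its adjusted p was 0.00913 by limma.
In the planar polarity and calcium list 1 of 29 tested genes was called, Daam2, a formin that binds Dishevelled, at -0.83 (limma adjusted p = 0.0260). Of the pericentral liver genes, 14 were tested in PSCs and 1 was called, Glul, which encodes glutamine synthetase, at 0.74 (limma adjusted p = 0.00439).

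In the livers no member passed the test between WT and TRPV4-KO, between WT and GSK219 or between TRPV4-KO and GSK219. By edgeR's quasi-likelihood test 20 members were tested, and 5, 1 and 3 of them had an unadjusted p under 0.05 in the order of these comparisons. DESeq2 called 0 members in each as well, and 5.46%, 0.767% and 0.9% of all genes. Over all 15118 genes tested, edgeR called 0.291%, 0.0% and 0.106%, and unadjusted p under 0.05 was reached by 17.1%, 8.22% and 6.12%. Of the 20 members, 14 were higher in WT than in TRPV4-KO, with a median log2 fold change of 0.26, against -0.01 over all genes. For WT against GSK219, which uses the same WT livers, 14 were also above 0, with a median of 0.07 against -0.0015. Untested members had between 1 and 46 counts over the 8 livers, apart from the 11 with none. The 12 with counts that were not tested were Fzd3, Fzd9, Wnt7a, Wnt7b, Wnt8b, Wnt6, Wnt11, Dkk2, Dkk4, Sfrp2, Sfrp4 and Sfrp5.

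Wif1, a secreted protein that binds Wnts (chromosome 10 from 121033960 to 121100650), had the smallest p of the members for WT against TRPV4-KO. It had 10 and 9 counts in WT, 1, 1 and 0 in TRPV4-KO, and 10, 13 and 4 with GSK219. All TRPV4-KO livers were below all others, and WT and GSK219 overlapped. The ratio of summed counts per library total was 14.7 for WT over TRPV4-KO (95% exact interval 3.54 to 130), which covers counting error only. Wif1 reached 10 counts only in WT and GSK219 livers, so it passed the filter on low counts through these groups alone. It was also picked for its small p, so the interval is not separate support for a difference. The fitted log2 fold change was 3.56 (SE 0.88, edgeR adjusted p = 0.132) for WT against TRPV4-KO and -3.51 for TRPV4-KO against GSK219 (edgeR adjusted p = 0.362). For WT against GSK219 it was 0.05, with a 95% interval from -1.42 to 1.52.

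The bases before the start of Wif1 are shown because its TRPV4-KO livers stood below all others. Those before a RefSeq start of Wnt5b, described next, are shown for an AP-1 match (TGAGTCA, in capitals, from 191 to 185 bases upstream). Both are RefSeq sequences of GRCm38.p6, 5′ to 3′ on the strand of the gene. The Wif1 window holds none of the motifs. The CTTTGAT match of Wnt5b lies before another of its RefSeq starts, whose window is not printed.
Wif1, chr10:121033754-121033959, plus strand: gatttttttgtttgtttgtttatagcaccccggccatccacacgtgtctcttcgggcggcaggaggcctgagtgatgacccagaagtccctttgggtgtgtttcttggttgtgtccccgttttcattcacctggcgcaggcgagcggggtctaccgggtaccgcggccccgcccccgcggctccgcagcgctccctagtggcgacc
Wnt5b, chr6:119544348-119544597, minus strand: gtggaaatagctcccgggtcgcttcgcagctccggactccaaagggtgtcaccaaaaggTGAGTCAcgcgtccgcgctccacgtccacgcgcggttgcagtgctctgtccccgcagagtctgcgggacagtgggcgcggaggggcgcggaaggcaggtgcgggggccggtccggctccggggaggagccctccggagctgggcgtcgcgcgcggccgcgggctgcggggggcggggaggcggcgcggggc

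Wnt5b, a ligand of the planar polarity and calcium routes and the Wnt with the highest mean TPM over the 8 livers (in GSK219 livers Wnt2 was higher, at 6.34 against 5.27 TPM), had 138 and 95 counts in WT. It had 214, 266 and 149 in TRPV4-KO and 119, 64 and 89 with GSK219. Every TRPV4-KO liver was above every other liver in counts, by a margin of 149 against 138. Divided by library totals, WT replicate 1 lay above TRPV4-KO replicate 3. On TMM-normalized CPM and on TPM, WT and TRPV4-KO did not overlap, with these livers at 8.27 and 8.41 TPM. The log2 fold change was -0.90 for WT against TRPV4-KO (SE 0.37, edgeR adjusted p = 0.271) and 1.24 for TRPV4-KO against GSK219 (edgeR adjusted p = 0.462).
Wnt9b, a ligand of central vein endothelium, had 62 and 68 counts in WT, 30, 26 and 21 in TRPV4-KO, and 41, 11 and 57 with GSK219. WT was above all livers of the other groups, and the GSK219 livers spread widely. The log2 fold change was 1.28 against TRPV4-KO (edgeR adjusted p = 0.282) and 0.81 against GSK219 (adjusted p = 0.773).
Wnt2, its partner in that endothelium, had 77 and 73 counts in WT, 39, 58 and 87 in TRPV4-KO, and 79, 66 and 130 with GSK219, and the groups overlapped (log2 fold changes 0.26 and -0.31, adjusted p 0.773 and 0.910 by edgeR). Wnt4 had 119 and 67 counts in WT, 32, 33 and 80 in TRPV4-KO, and 27, 54 and 52 with GSK219, with log2 fold changes of 0.94 (edgeR adjusted p = 0.353) and 1.06 (adjusted p = 0.610). WT lay above all GSK219 livers, but 1 TRPV4-KO liver lay between the WT livers. Wnt9a had 16 and 16 counts in WT, 16, 18 and 18 in TRPV4-KO, and 13, 12 and 10 with GSK219, and all GSK219 livers were lowest. Wnt5a, Wnt2b and Wnt9a were at 0.59, -0.42 and -0.16 against TRPV4-KO, with adjusted p between 0.416 and 0.867.

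Of the receptors, Fzd4, which binds Wnts and Norrin on endothelium, had 622 and 619 counts in WT, 928, 923 and 721 in TRPV4-KO, and 763, 539 and 480 with GSK219. All TRPV4-KO livers were above WT, but 1 overlapped GSK219 (log2 fold changes -0.52 for WT against TRPV4-KO, adjusted p = 0.319, and 0.55 for TRPV4-KO against GSK219, adjusted p = 0.751 by edgeR). Fzd6 had 137 and 137 counts in WT, 83, 80 and 120 in TRPV4-KO, and 155, 149 and 83 with GSK219, and was at 0.50 for WT against TRPV4-KO (adjusted p = 0.429). Fzd7 had 498 and 667 counts in WT, 385, 623 and 501 in TRPV4-KO, and 579, 499 and 568 with GSK219. Fzd8 had 322 and 399, then 330, 247 and 479, then 475, 341 and 293 counts in the same order. Both overlapped between all groups. Fzd1 had 207 and 187 counts in WT, 164, 168 and 240 in TRPV4-KO, and 201, 220 and 180 with GSK219, and Fzd5 had 120 and 201, then 156, 171 and 164, then 230, 156 and 128. The abundant Fzd7, Fzd8, Fzd1 and Fzd5 lay between -0.08 and 0.16 in that comparison and between -0.13 and 0.06 for WT against GSK219. The 95% intervals of Fzd1 ran from -0.41 to 0.44 and from -0.47 to 0.38, the narrowest of the members. Fzd2, the leading receptor of the PSC cultures, had 13 and 3 counts in WT, 1, 6 and 13 in TRPV4-KO, and 5, 1 and 1 with GSK219.

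Of the agonists, Rspo3 had 86 and 59 counts in WT, 39, 20 and 62 in TRPV4-KO, and 65, 47 and 92 with GSK219, and 1 TRPV4-KO liver lay between the WT livers (log2 fold change 0.83, adjusted p = 0.389 by edgeR). Rspo1 had from 4 to 33 counts and a log2 fold change of 0.36 (adjusted p = 0.854).
Frzb, an Sfrp-like antagonist, had 88 and 57 counts in WT, 28, 19 and 50 in TRPV4-KO, and 17, 28 and 30 with GSK219. Both WT livers were above all others. Its log2 fold change was 1.15 against TRPV4-KO (SE 0.42, edgeR adjusted p = 0.224) and 1.52 against GSK219 (SE 0.42, edgeR adjusted p = 0.477), and by edgeR no other member was at an unadjusted p under 0.05 against GSK219. Dkk3 had 155 and 79 counts in WT, 71, 37 and 69 in TRPV4-KO, and 64, 71 and 84 with GSK219, so that 1 WT liver stood far above the rest. Its log2 fold change of 0.96 (edgeR adjusted p = 0.235) lay between 0.36 and 1.41 with each liver left out. Sfrp1, called in PSCs, had from 5 to 25 counts in a liver and a log2 fold change of -0.22 (95% interval -2.01 to 1.58).

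**Figure D4:**
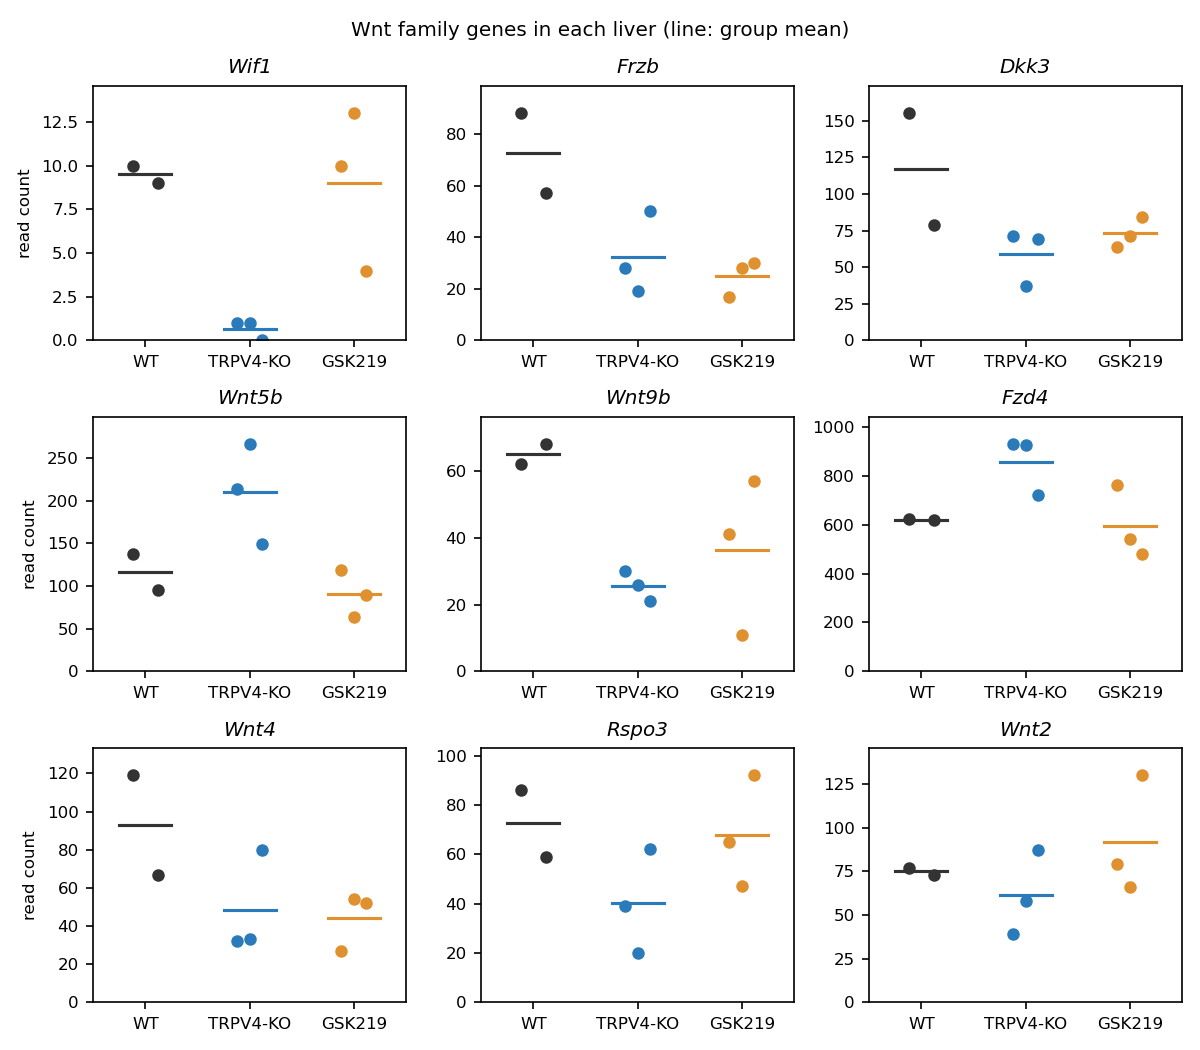
Read counts of 9 members in each of the 8 livers, with a line at the group mean. TRPV4-KO livers are lowest for Wif1 and highest for Wnt5b, both WT livers are above all others for Frzb and Wnt9b, and the groups overlap for Wnt2.

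On TMM-normalized CPM, groups that do not overlap were found for 9 of 20 members between WT and TRPV4-KO (45.0%, against 33.2% of all genes), for 4 between WT and GSK219 (against 27.3%) and for 3 between TRPV4-KO and GSK219 (15.0%, against 10.2%). Both comparisons with WT use the same 2 WT livers. These livers also differed in cell markers. The Kupffer or macrophage list summed to between 1370.0 and 1634.0 TPM in WT, 354 and 884 TPM in TRPV4-KO, and 386 and 1058 TPM with GSK219. The neutrophil list summed to between 179 and 212 TPM, 3.68 and 25.1 TPM, and 7.91 and 21.2 TPM. The summed endothelial and stellate lists overlapped between all groups, and in WT and TRPV4-KO livers they summed to between 212 and 250 TPM and between 139 and 226 TPM (endothelial) and to between 267 and 317 TPM and between 130.0 and 327 TPM (stellate). Of single markers, 8 of 8 stellate ones had a log2 fold change above 0 for WT against TRPV4-KO (median 0.79, 3 at an unadjusted p under 0.05) and 7 of 8 endothelial ones (median 0.18, 3 at an unadjusted p under 0.05), and 0 were called by edgeR. Cdh5, of endothelium, had 52.6 and 50.7 TPM in WT against 24.2, 17.3 and 36.9 TPM in TRPV4-KO, without overlap. Of the neutrophil markers, Mpo, Elane, Ngp, Camp and Ltf were at 0 in some TRPV4-KO livers. Their part in the members' values was not tested.

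**Figure D5:**
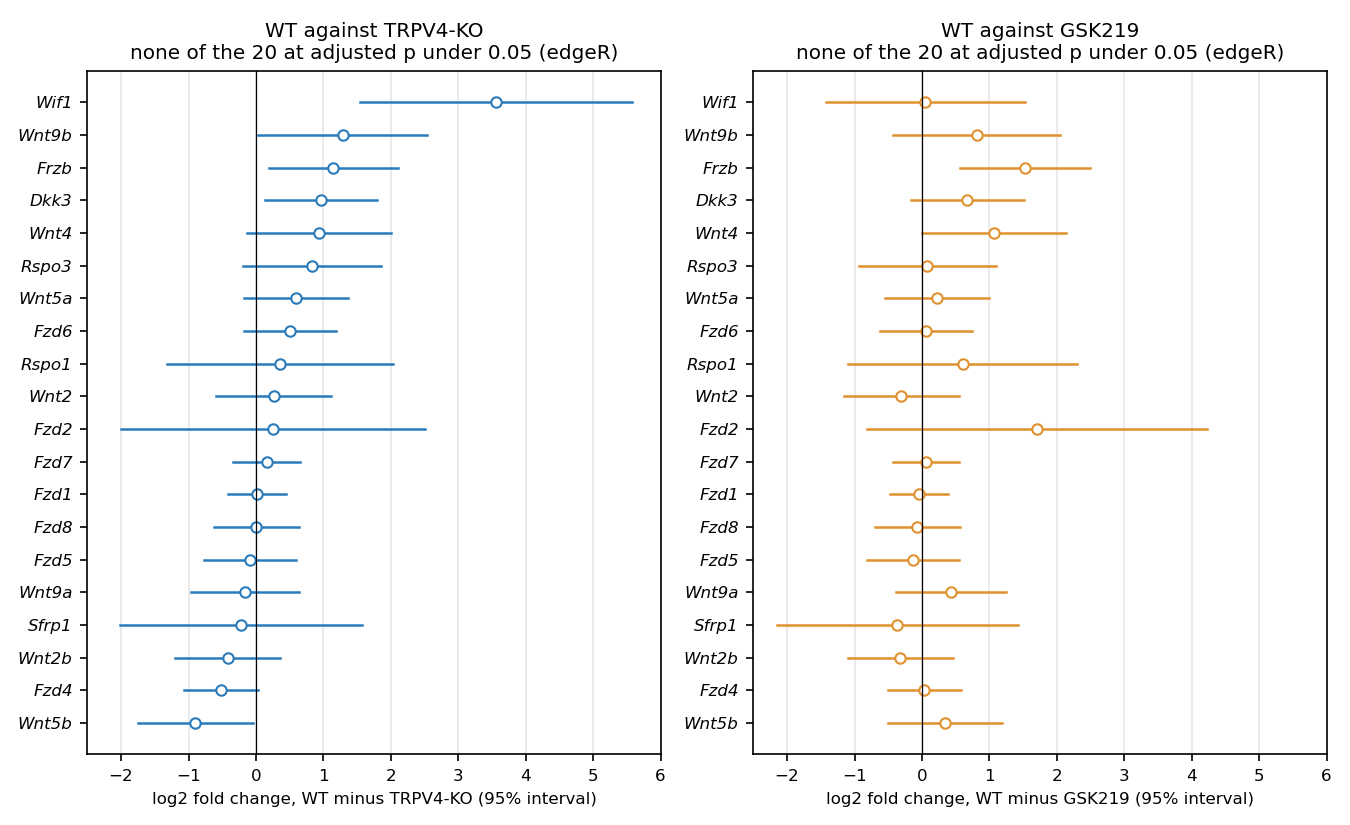
Log2 fold change of the 20 tested members with 95% intervals, for WT against TRPV4-KO (left) and WT against GSK219 (right), in the same order of genes; open points did not pass adjusted p under 0.05 by edgeR. Wif1 is at 3.56 on the left and 0.05 on the right, and most other intervals include 0.

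Of the 103 pathway genes tested in livers, 0 were called by edgeR in any of the 3 comparisons, with 19, 4 and 8 at an unadjusted p under 0.05, where all genes reached 17.1%, 8.22% and 6.12%. Of 18 tested general targets, 15 were higher in WT than in TRPV4-KO, with a median log2 fold change of 0.45. Of the 20 pericentral genes 12 were above 0 and 8 below, with a median of 0.23. The lists share genes, Axin2, Nkd1 and Lgr5 among them, so these medians are not independent. The medians of the other 3 lists were -0.06, -0.04 and 0.01 in this comparison. For WT against GSK219, 14 of the 18 targets were above 0 with a median of 0.20, and 9 of the 20 pericentral genes with a median of -0.03. Axin2 had 254 and 270 counts in WT, 134, 159 and 109 in TRPV4-KO, and 167, 198 and 196 with GSK219. WT was above both other groups without overlap, at a log2 fold change of 0.91 against TRPV4-KO (SE 0.21, edgeR adjusted p = 0.115) and 0.46 against GSK219 (adjusted p = 0.613). Nkd1, another feedback inhibitor, had 173 and 193 counts in WT and 114, 78 and 141 in TRPV4-KO (log2 fold change 0.69, adjusted p = 0.186 by edgeR), and 178, 160 and 194 with GSK219.
The co-receptor Lrp5 was at 0.83 and Ptk7, a planar polarity co-receptor, at 0.97 for WT against TRPV4-KO (adjusted p 0.174 and 0.231 by edgeR). In the same comparison Ctnnbip1, an inhibitor of beta-catenin, was at -0.67, Daam1 at -0.68 and Plcb1 at -0.71, with adjusted p between 0.153 and 0.192. For WT against GSK219 the smallest p of each list were those of Ptk7 at 1.53, Gpc6 at 1.36, Tle1 at -0.41, Amer1 at 0.46, Axin2, Myc at 0.61, Tnfrsf19 at -0.71, Camk2d at 0.39 and Prickle3 at 0.43, with adjusted p between 0.426 and 0.726 by edgeR. For TRPV4-KO against GSK219 they were those of Lgr5 at -0.69, Lrp5 at -0.73, Tle4 at 0.39, Ctnnbip1 at 0.41, Nkd1 at -0.67, Plcb1 at 0.60 and Daam1 at 0.37, with adjusted p between 0.506 and 0.866.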

How the data were processed

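RNA-Seq tables of 8 livers and 6 PSC cultures were used. For livers the authors deposited raw read counts per gene, with gene lengths and GRCm38 coordinates. For PSCs they deposited a signal, gene counts divided by 1 size factor per library; all values came out as whole reads within 0.01. The submitters' notes name HISAT2 2.0.5 and Trim Galore; the counting tool and strand setting are not given in the sources used here, and antisense genes share exon bases with Wnt5a (4.58%), Fzd6 (3.15%), Wnt7b, Sfrp2, Rspo3 (13.1%) and Fzd5 (17.8%), and a pseudogene with Wnt11 (8.8%). The authors' own comparison columns (fold changes, errors, statistics and p-values) and 7 further count columns were not used.

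PSC values were tested with limma 3.58.1 (trended variance) on log2(value + 1), for genes at 10 or more in 3 libraries. Liver counts were tested with edgeR 4.0.16 quasi-likelihood fits over all 8 livers (TMM, minimum count 10), in R 4.3.3. P-values were adjusted by Benjamini-Hochberg over all genes tested, and a call is an adjusted p under 0.05. DESeq2 1.42.0 was an alternative. Both scripts were tested on simulated data. TPM used the deposited gene lengths. The PSC cultures share numbers in the labels, and deviations of same-numbered cultures correlated at 0.43, 0.26 and 0.53, so the replicate block was fitted too. Members and lists were chosen with earlier results of these data known. Every member is named, with values per sample for those called, for the 6 smallest p of a comparison, for the 8 highest members per length and for the pathway genes the text turns on; of each list the called genes (at most 5) or the 2 smallest p are named. Intervals cover counting error only where they rest on counts of 1 gene.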

Additional observations from a re-analysis of the deposited data

Results flagged for a closer look

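On TMM-normalized CPM, 2 members had all TRPV4-KO livers on one side of both WT livers and all GSK219 livers on the other. Wnt9a had TMM-normalized levels of 0.990 and 0.932 CPM in WT, 1.012, 1.17 and 1.04 in TRPV4-KO, and 0.818, 0.725 and 0.598 with GSK219. The log2 fold change of TRPV4-KO against GSK219 was 0.58 (edgeR adjusted p = 0.886), so the difference did not pass the test. On TPM neither split is complete: Wnt9a was at 0.764 TPM in WT replicate 1 and 0.703 in TRPV4-KO replicate 1, and Fzd3 at 0.0869 in WT replicate 1 and 0.0837 in TRPV4-KO replicate 2. The counts of Wnt9a tie at 16 in both WT livers and TRPV4-KO replicate 1.

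Fzd3 had 7 and 6 counts in WT, 11, 7 and 10 in TRPV4-KO, and 1, 3 and 1 with GSK219. The log2 ratio of the mean CPM of TRPV4-KO to that of GSK219 was 2.51. Fzd3 was below the filter on low counts, and the difference was not tested. The split rests on small counts, since TRPV4-KO replicate 2 lay at 0.454 CPM and WT replicate 1 at 0.433 CPM with the same count of 7.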

How the results depend on the processing

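Calls in PSCs moved with the processing, and members in livers were called under no alternative tried. For Yoda1 against DMSO, 4 members were called, 9 with the replicate block, 2 without the intensity trend, and 1 (Wnt2) when a log2 fold change over 1 was required too; with cultures left out singly or in pairs the count lay between 0 and 11, and it was 5 without Yoda1 replicate 3 alone. The single culture with the most weight was DMSO replicate 2, without which 0 members were called by limma, and 49 of all genes. The 10 pathway genes called became 19 with DESeq2, 27 with the replicate block and 4 with the fold rule, while the share of all genes called went from 4.75% to 10.7%, 17.7% and 1.56%, and with cultures left out the count lay between 0 and 23, with 13 without Yoda1 replicate 3 alone. Other alternatives (edgeR on recovered reads, pseudocounts of 0.1 and 10, no filter) kept the number of members called within 1.5 times. Leaving out both cultures of a number was chosen after seeing the data. For WT against TRPV4-KO, the 0 pathway genes called became 3 with DESeq2, 3 with the replicate block and 2 with a term for sex. With a liver left out there were between 0 and 8, the 8 without TRPV4-KO replicate 3. Sex was inferred from counts of Xist and Y-linked genes and not taken from the labels. Livers share only numbers: their same-numbered deviations correlated between -0.48 and 0.58. None of the members given with values in every sample for a call or for one of the 6 smallest p changed sign in that comparison. With single libraries left out, the log2 fold change took both signs for 9 of 29 members in PSCs, and for 7, 13 and 9 of 20 in livers (WT against TRPV4-KO, WT against GSK219, TRPV4-KO against GSK219), among them Wnt4 in PSCs (-1.09 to 0.18) and Rspo1 for WT against TRPV4-KO (-1.04 to 1.07). Low members had wide intervals, and the share of depth and of spread between livers in them was not tested: the 95% interval of Fzd2 for WT against GSK219 ran from -0.81 to 4.23. The causes of these shifts were not tested.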

Other observations

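Among the receptors of R-spondins, which are not members, Lgr5 and Lgr6 differed in direction in PSCs, and neither was called without the replicate block. Lgr4, another such receptor, is not described here. Lgr5 had a mean of 33.7 ± 9.77 normalized reads with DMSO and 12.0 ± 3.09 with Yoda1 (SD, n = 3), a log2 fold change of -1.40 (limma adjusted p = 0.0661, 0.0154 with the replicate block). Lgr6 had 414 ± 153 and 926 ± 508 (SD, n = 3), a log2 fold change of 1.10 (limma adjusted p = 0.185, 0.00945 with the block). Ror1, a receptor of Wnt5a, was at -0.53 (limma adjusted p = 0.0516, 0.00935 with the block). Wls, which carries Wnts to the cell surface, was at -0.27 (limma adjusted p = 0.0898, 0.0217 with the block). Lgr5, Lgr6, Ror1 and Wls were chosen for this paragraph after their values were seen.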
